A study of Mus musculus with 2 samples.

Results

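The genes described here are the classical cadherins, the non-clustered protocadherins and the Celsr genes. They were taken by symbol (Cdh, Pcdh or Celsr followed by a number, with Pcdh11x), which gave 38 of the 31053 genes in the count tables. By family these are 5 type I classical cadherins, 13 type II classical cadherins, 5 atypical cadherins, 4 delta-1 protocadherins, 5 delta-2 protocadherins, 3 other protocadherins and 3 Celsr genes. The study differentiated MM13 mouse embryonic stem cells towards dorsal spinal cord neurons and profiled single cells at day 9. The first group was treated with RA (retinoic acid, which caudalises neural tissue). The other had RA and BMP4, a roof plate signal that dorsalises the neural tube. Both groups come from the same line, and each is 1 library. The values are counts of unique molecular identifiers (UMIs), each marking 1 captured transcript molecule.

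Cadherins are calcium-dependent adhesion receptors whose repeated extracellular domains bind partners on the neighbouring cell. Classical cadherins bind beta-catenin and p120-catenin inside the cell and link to actin through alpha-catenin. Delta protocadherins bind weakly and recruit actin regulators such as the WAVE complex. Celsr proteins, the vertebrate relatives of fly Flamingo, span the membrane many times and act in planar cell polarity and axon guidance. In the spinal cord, combinations of type II cadherins are known for helping motor neurons sort into pools, and the exchange of E-cadherin (Cdh1) for N-cadherin (Cdh2) is a textbook mark of neural plate formation.

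After filtering, the RA library held 5900 cells with 108988894 UMIs and a median of 14196 UMIs per cell. The RA+BMP4 library held 8352 cells with 101964880 UMIs and a median of 10465. The labels call the cells differentiated neurons, and neuron clusters held 51.5% of the RA cells (3036 of 5900) and 41.4% of the RA+BMP4 cells (3458 of 8352). The kept cells of the libraries shared 21 barcode sequences. Counts were summed over the cells of a library or class and scaled to a total of 1000000 (CPM), and intervals are exact 95% intervals that cover counting error only. With 1 library per condition no test between conditions exists, so a difference was counted by size alone: at least 2-fold, with at least 5 CPM in 1 whole library or 20 CPM in 1 library of a class. In summed libraries, fewer cells of a type and less RNA per cell cannot be told apart, and library and treatment cannot be told apart either.

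Joint clustering gave 22 clusters, and 15 classes or clusters had enough cells and UMIs in both libraries to be compared. They were named from marker lists, with the members kept out of the clustering genes. The classes were pluripotent-like, mesenchyme-like, roof plate-like, progenitor-like and newborn neuron-like cells, a choroid plexus or dorsal midline epithelium-like class (called dorsal midline epithelium-like from here on), 4 dorsal interneuron classes (dI1-like, dI2-like, dI5/dILB-like and dI4/dILA-like), and a pan-neuronal-like class led by Sncg, Syt4 and Sst. The dI classes are dorsal interneuron types numbered from the roof plate downwards. Clusters 11, 12, 9 and 17 stayed unnamed. They are called by genes that lead them: mitotic-gene-led cycling cells (Cenpf, Aspm), histone-led cycling cells (Hist1h1b), Prrxl1/Tlx1-led neurons and Atoh1-led neurons.

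Over the whole libraries no member above 5 CPM reached a 2-fold difference. Of the 22 members that reached 5 CPM, 0 were at least 2-fold higher in RA+BMP4 and 0 were at least 2-fold lower. Of all 11030 genes at that level, 1.5% were higher and 1.41% were lower, so counts of 0 among 22 are near the background and say nothing particular about the members. The members' median log2 ratio of RA+BMP4 over RA was 0.06, against 0.07 for all genes. Within 1.5-fold lay 18 of the 22 members (81.8%) and 91.8% of all genes. Type I cadherins together had 301 CPM (RA) and 306 CPM (RA+BMP4). Type II cadherins had 185 and 219 CPM, Celsr genes 101 and 124 CPM, delta-2 protocadherins 100 and 107 CPM, and delta-1 protocadherins 76.1 and 76.9 CPM.

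Of the members nearest to the 2-fold mark, Cdh1 and Celsr1 were highest in classes that differed in size between the libraries. Cdh1 was at 8.19 CPM with RA alone and at 4.10 CPM with BMP4. Its log2 ratio, -0.999 with an interval from -1.17 to -0.83, lay just inside the mark, and TMM scaling put it past the mark at -1.06. Pluripotent-like cells, which carried Cdh1, were 5.54% of the cells in RA but 2.18% in RA+BMP4. With those cells left out the Cdh1 log2 ratio was 0.05. Celsr1 was at 21.4 and 40.7 CPM, and its log2 ratio was 0.92 (interval 0.85 to 0.998). Roof plate-like cells were 2.58% of the RA library and 20.5% of the other, and they held 9.59% of the Celsr1 UMIs in RA and 50.4% in RA+BMP4. When every class, with the remaining cells as 1 group, was given the same share in both libraries, the log2 ratio of Celsr1 was 0.29 and that of Cdh1 was -0.16. Not all members moved towards 0, and that of Cdh4 went from -0.17 to -0.61 and that of Pcdh8 from 0.13 to 0.50. With a stricter cell filter (2000 genes, 5% mitochondrial UMIs), Cdh3 (1.59) and Celsr1 (1.00) were counted as higher. At the fixed shares 20 members were above the floor, with 0 higher and 0 lower, against 0.537% higher and 0.446% lower among all genes.

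**Figure D1:**
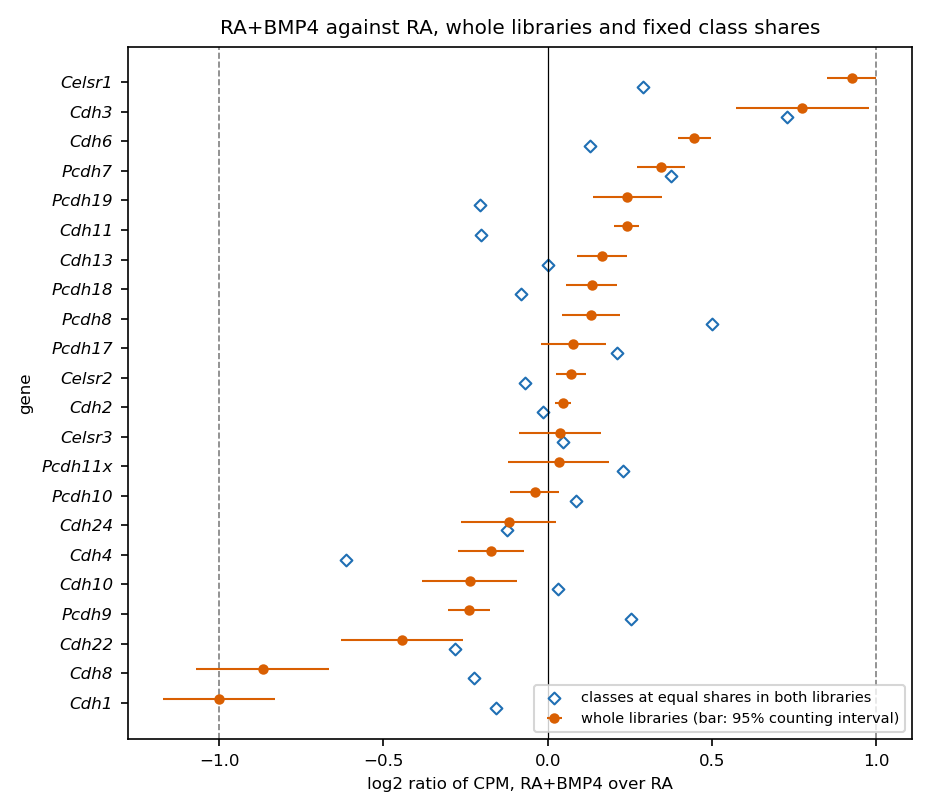
Log2 ratio of summed CPM, RA+BMP4 over RA, for the 22 members that reached 5 CPM in 1 library (circles with exact 95% counting intervals; 1 library per condition). Open diamonds give the ratio with every class at the same share in both libraries, and dashed lines mark 2-fold. All circles lie between the dashed lines. Cdh1 (-0.999 against -0.16), Celsr1 (0.92 against 0.29) and Cdh8 (-0.87 against -0.23) move furthest towards 0 at fixed shares. Others move away from 0, such as Cdh4 (-0.17 against -0.61) and Pcdh8 (0.13 against 0.50). Some change sign, such as Pcdh9 (-0.24 against 0.25) and Cdh11 (0.24 against -0.20).

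Among type I cadherins, Cdh1 and Cdh2 divided the pluripotent-like cells from the other 14 compared classes. Cdh1 (E-cadherin, chr8:106603351-106670246, GRCm38) had 42.6 CPM in pluripotent-like cells of RA and 42.5 CPM in those of RA+BMP4. In each of the other 14 classes of both libraries it was at 1.36 CPM or less. After each cell was thinned to 5000 UMIs, a Cdh1 UMI was found in 62 of the 321 pluripotent-like cells of RA (19.3%, interval 15.1 to 24.1%) and 32 of the 173 of RA+BMP4 (18.5%, interval 13.01 to 25.1%). Without thinning the shares were 74.9% and 61.5%, at median depths of 54058 and 37463.5 UMIs. In dI5/dILB-like neurons, which should lack the gene, the thinned shares were 1 of 807 cells (0.124%) and 0 of 115 cells (which allows up to 2.61%, taking 3 counts), at median depths of 11917 and 8702.5 UMIs. A group of 26 and 31 endoderm-like cells, too few to be compared, had 38.8 and 86.7 CPM of Cdh1.

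Cdh2 (N-cadherin) showed the reverse. It had 24.1 and 22.5 CPM in pluripotent-like cells, 168 and 179 CPM in mesenchyme-like cells, and between 272 and 430 CPM in each of the other 13 classes of both libraries. Its highest level was in dI5/dILB-like neurons of both libraries, at 429.7 CPM (RA) and 429 CPM (RA+BMP4). Among the neuron classes it varied little, and ranged from 340 to 430 CPM in RA and from 317 to 429 CPM in RA+BMP4.

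The transcription factors known for repressing Cdh1 did not share 1 pattern. Snai2 had 44.8 and 42.2 CPM in mesenchyme-like cells and at most 5.89 CPM in every other class of either library. Twist1 was also highest there, at 298 and 338 CPM. Zeb1 was highest in newborn neuron-like cells (171 and 146 CPM) and had 24.97 and 23.1 CPM in pluripotent-like cells. Zeb2 had 8.81 and 7.69 CPM in pluripotent-like cells and 234 and 227 CPM in newborn neuron-like cells. Snai1 stayed at 4.75 CPM or less in every class.

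Cdh4 (R-cadherin, chr2:179442431-179899373) differed between neuron subtypes. In dI1-like neurons it had 76.6 CPM (RA) and 54.3 CPM (RA+BMP4), against a median over the 15 classes of 16.99 and 10.51 CPM. It was concentrated in the dI1-like cluster led by Lhx2, Barhl2 and Lhx9, at 94.3 CPM in 67 RA cells and 89.9 CPM in 455 RA+BMP4 cells. The other dI1-like cluster, led by Sorcs3, had 27.2 CPM in 26 RA cells and 36.3 CPM in 1023 RA+BMP4 cells. Of the remaining compared neuron clusters the highest had 24.2 CPM (RA) and 26.4 CPM (RA+BMP4). Cdh3 (P-cadherin) had its highest levels in mesenchyme-like cells (10.8 and 24.2 CPM) and dorsal midline epithelium-like cells (10.3 and 10.49 CPM), and 3.19 CPM or less elsewhere. Cdh15 (M-cadherin, a muscle cadherin) had 40 UMIs in RA and 10 in RA+BMP4.

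**Figure D2:**
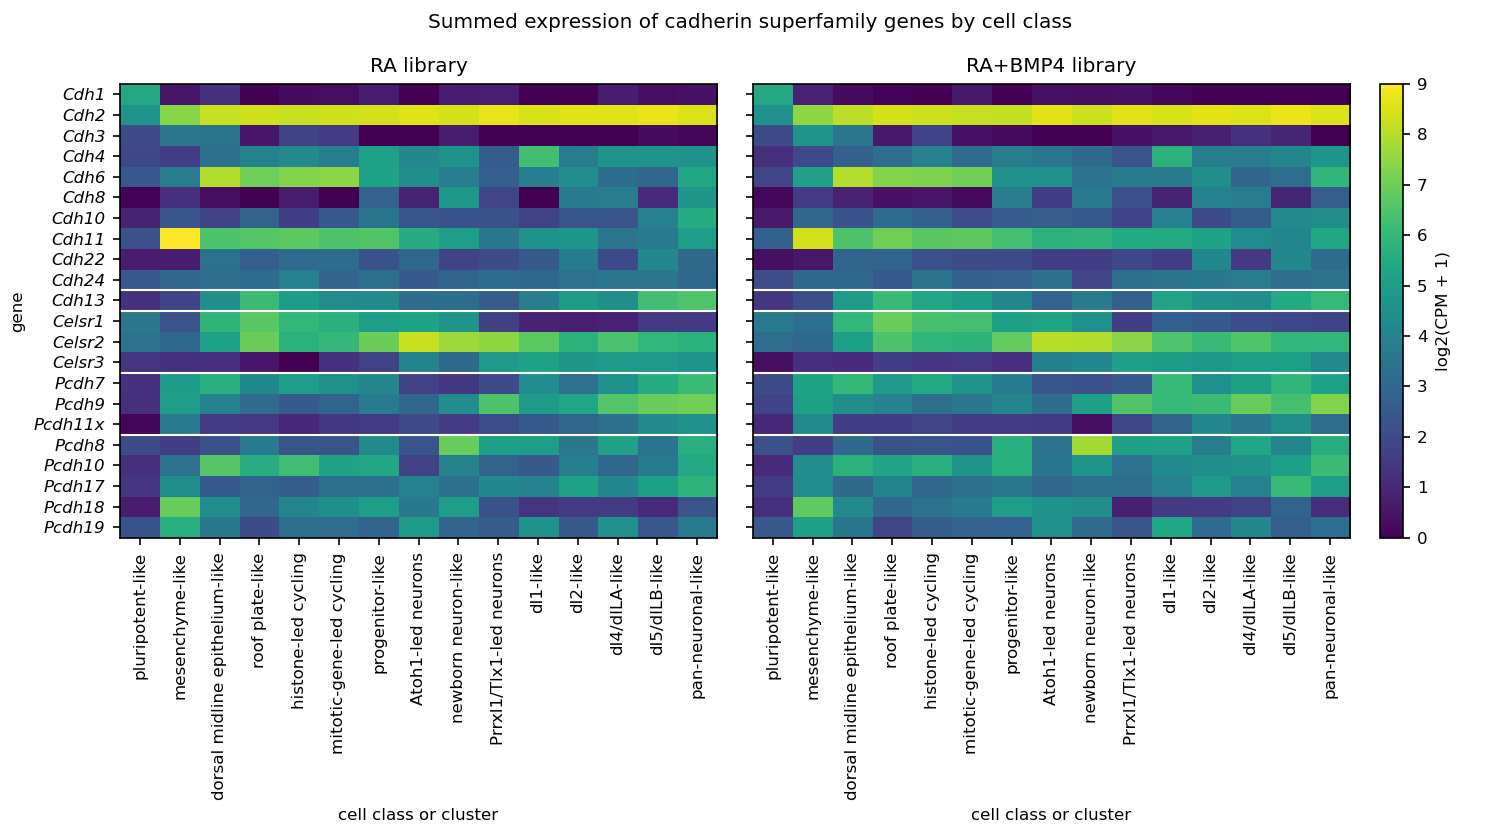
Summed expression, as log2(CPM + 1), of the 22 members that reached 5 CPM (rows, grouped by family with white lines) in the 15 compared classes and clusters (columns) of the RA library (left) and the RA+BMP4 library (right). Cdh1 stands out in the pluripotent-like column (42.6 and 42.5 CPM), Cdh11 in the mesenchyme-like column (501 and 331 CPM), and Celsr2 in Atoh1-led neurons (306 and 267 CPM).

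The most abundant type II cadherins, Cdh11 and Cdh6, were highest in non-neuronal classes. Cdh11 (chr8:102632095-102785642), known as a cadherin of mesenchyme, had 501 CPM (RA) and 331 CPM (RA+BMP4) mesenchyme-like cells. The next class had 104 CPM in RA (histone-led cycling cells) and 131 CPM in RA+BMP4 (roof plate-like cells). Among neurons it was lowest in dI4/dILA-like cells of RA (10.49 CPM) and in dI5/dILB-like cells of RA+BMP4 (16.4 CPM), and pluripotent-like cells were lower still (3.72 and 5.95 CPM). In thinned cells 86.0% of RA and 73.9% of RA+BMP4 mesenchyme-like cells had a Cdh11 UMI, against 2.80% and 2.31% of pluripotent-like cells.

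Cdh6 (chr15:13028701-13173675), known from dorsal neural tube and neural crest, was highest in dorsal midline epithelium-like cells, at 241 and 258 CPM. Roof plate-like cells had 127 and 160 CPM, histone-led cycling cells 158 and 153 CPM, and mitotic-gene-led cycling cells 171 and 131 CPM. In the neuron clusters it was highest in pan-neuronal-like cells (41.5 and 59.2 CPM). The other dI classes and the newborn neurons lay between 6.68 and 21.2 CPM. Cdh6 levels in the midline, roof plate and cycling groups thus lay above those of every compared neuron cluster in both libraries.

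The remaining type II cadherins were at low levels, and several were highest in neuron classes. Cdh10 had 46.4 and 21.6 CPM in pan-neuronal-like neurons, followed by 14.1 and 18.2 CPM in dI5/dILB-like neurons, and 0.88 and 0.58 CPM in pluripotent-like cells. Cdh8 had 27.1 and 12.4 CPM in newborn neuron-like cells, 26.0 and 5.599 CPM in pan-neuronal-like cells, and 12.3 and 14.7 CPM in dI2-like neurons. In dI5/dILB-like neurons Cdh8 had 1.09 and 0.91 CPM. Cdh22 was highest in dI5/dILB-like (16.8 and 17.3 CPM) and dI2-like neurons (12.3 and 17.5 CPM) and had 0.66 and 0.48 CPM in mesenchyme-like cells. Cdh24 was between 2.73 and 14.1 CPM in all 15 classes of both libraries, highest in histone-led cycling cells of RA and lowest in newborn neuron-like cells of RA+BMP4. Cdh18 reached 12.8 and 16.4 CPM in pan-neuronal-like neurons and at most 6.03 CPM in any other class.

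Cdh13 (T-cadherin), an atypical member held to the membrane by a lipid anchor and without a cytoplasmic tail, was high in roof plate-like cells and in 2 neuron classes. It had 69.3 and 65.1 CPM in roof plate-like cells, 92.0 and 64.8 CPM in pan-neuronal-like neurons, and 74.6 and 44.7 CPM in dI5/dILB-like neurons. It had 4.94 and 5.80 CPM in the Prrxl1/Tlx1-led neurons. The other atypical members were scarce: Cdh16, Cdh17, Cdh23 and Cdh26 each had 59 UMIs or fewer in either library.

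The Celsr genes were highest in different classes: Celsr1 in roof plate-like cells, Celsr2 in Atoh1-led neurons and Celsr3 in later neurons. Celsr1 was highest in roof plate-like cells (103 and 121 CPM), with 60.5 and 82.6 CPM in histone-led cycling cells and 31.5 and 32.5 CPM in progenitor-like cells. Newborn neuron-like cells still had 24.6 and 22.1 CPM, and the Prrxl1/Tlx1-led, dI2-like, dI4/dILA-like, dI5/dILB-like, dI1-like and pan-neuronal-like neurons had 5.38 CPM or less. Celsr2 was highest in Atoh1-led neurons, the cells that carry the dI1 determinant Atoh1, at 306 CPM (276 to 338) in RA and 267 CPM (250 to 286) in RA+BMP4. Newborn neuron-like cells followed with 206 and 249 CPM and Prrxl1/Tlx1-led neurons with 177 and 171 CPM. In later neuron classes Celsr2 lay between 52.3 and 105 CPM. Celsr3, known for guiding axon tracts, was at 2.30 CPM or less in roof plate-like, cycling and progenitor-like cells. It had 7.53 and 16.7 CPM in newborn neurons, 15.4 and 13.6 CPM in Atoh1-led neurons, and between 18 and 34.3 CPM in the later neuron classes. The counting intervals of Celsr3 overlapped among most of those later classes. In RA+BMP4 the pan-neuronal-like interval (13.1 to 24.1 CPM) lay below that of dI1-like neurons (27.04 to 32.9 CPM).

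**Figure D3:**
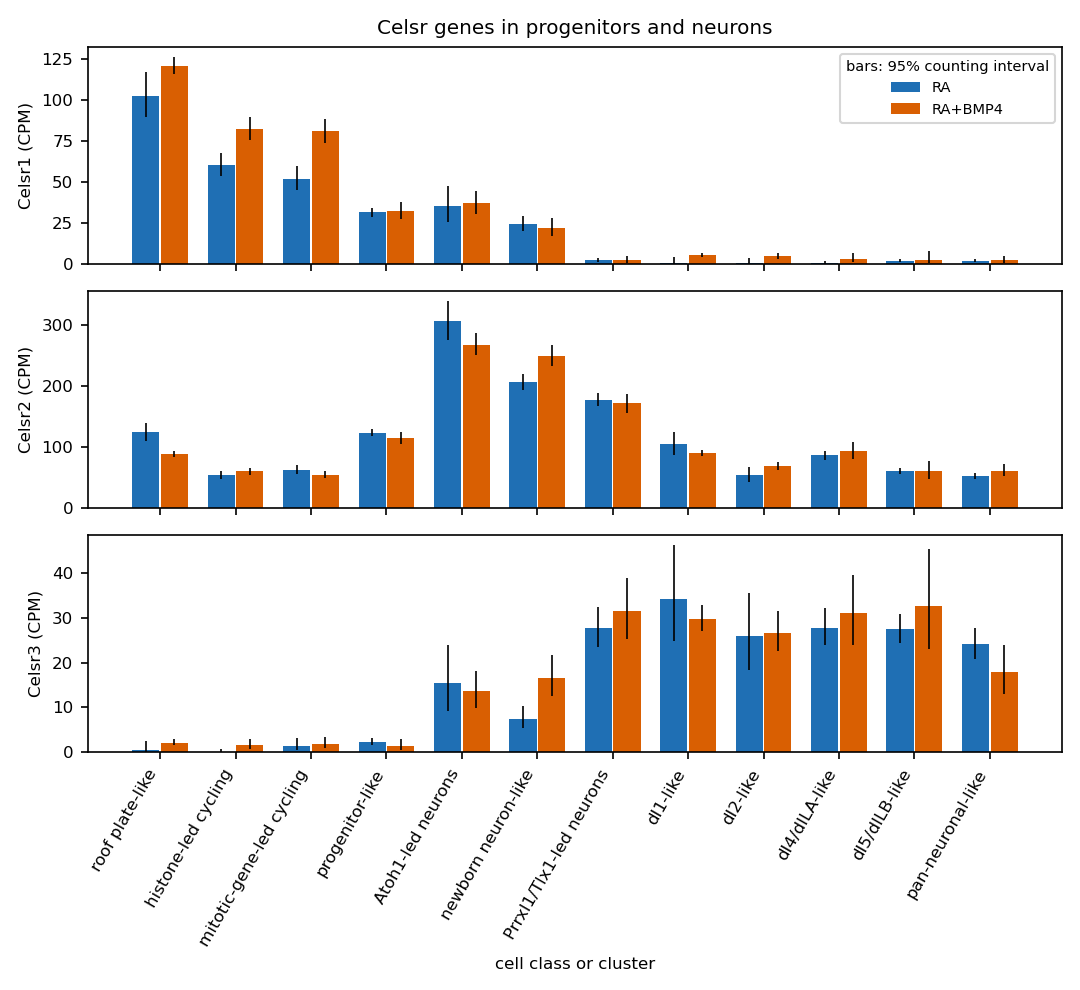
Summed CPM of Celsr1, Celsr2 and Celsr3 (vertical axes, linear from 0) in progenitor and neuron classes (horizontal axis, ordered by their marker genes) of the RA (blue) and RA+BMP4 (orange) libraries, with exact 95% counting intervals. Celsr1 is highest in roof plate-like cells (103 and 121 CPM), Celsr2 in Atoh1-led neurons (306 and 267 CPM), and Celsr3 in the postmitotic neuron classes (18 to 34.3 CPM).

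Since Celsr2 and Pcdh8 peaked in clusters led by proneural factors (Atoh1, Neurog1, Neurog2), which bind E-box motifs, the 250 bases before the RefSeq transcription start (GRCm38.p6) are shown for these, and for Cdh6 and Pcdh18, whose peaks were in non-neuronal classes. Of the 38 members, 24 matched an entry in the promoter table. The first motif searched on both strands was CAGCTG, held by 13% of all 32851 promoter windows of that length. The second was CAGATG, which reads CATCTG on the other strand, and 14.4% of windows held it. The third was CACCTG, which reads CAGGTG on the other strand, and 17.2% held it. Capitals mark matches, and none of the marked matches overlap. The windows lie at chr3:108415580-108415829 (Celsr2), chr14:79771313-79771562 (Pcdh8), chr15:13173676-13173925 (Cdh6) and chr3:49757317-49757566 (Pcdh18), all on the minus strand.
Celsr2: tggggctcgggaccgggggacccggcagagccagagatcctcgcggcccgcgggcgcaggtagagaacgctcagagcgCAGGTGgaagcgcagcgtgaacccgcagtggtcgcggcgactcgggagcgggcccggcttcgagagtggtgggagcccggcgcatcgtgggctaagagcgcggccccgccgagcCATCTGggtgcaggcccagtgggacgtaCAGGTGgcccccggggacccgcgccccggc
Pcdh8: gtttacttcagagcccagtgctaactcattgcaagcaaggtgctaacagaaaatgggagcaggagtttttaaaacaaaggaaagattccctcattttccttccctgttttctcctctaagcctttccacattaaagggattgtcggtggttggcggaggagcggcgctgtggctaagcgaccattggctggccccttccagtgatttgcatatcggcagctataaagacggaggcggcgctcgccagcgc
Cdh6: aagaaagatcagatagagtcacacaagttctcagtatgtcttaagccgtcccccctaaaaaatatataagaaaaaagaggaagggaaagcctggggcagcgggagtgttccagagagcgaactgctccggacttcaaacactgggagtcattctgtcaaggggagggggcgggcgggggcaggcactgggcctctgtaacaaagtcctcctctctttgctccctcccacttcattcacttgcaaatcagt
Pcdh18: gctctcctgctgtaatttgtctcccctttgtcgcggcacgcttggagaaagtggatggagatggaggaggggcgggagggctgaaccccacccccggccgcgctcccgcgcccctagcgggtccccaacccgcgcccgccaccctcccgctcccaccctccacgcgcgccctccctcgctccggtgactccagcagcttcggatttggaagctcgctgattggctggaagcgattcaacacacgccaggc
The Celsr2 window held 1 CATCTG, 58 bases before the start, and 2 CAGGTG, 172 and 30 bases before it. These letters were not found in the Pcdh8, Cdh6 and Pcdh18 windows. Of the 24 members with an entry, 2 held the first motif (Cdh12, Cdh9) and 3 the second (Cdh24, Cdh7, Celsr2). The third was held by 3 (Cdh7, Celsr2, Pcdh15). Beside the shares of all windows, 13%, 14.4% and 17.2%, these counts show no excess among the members. A match is a description of the letters and not of binding.

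Of the delta-1 protocadherins, Pcdh9 was highest in later neuron classes. Pcdh9 had 134 and 158 CPM in pan-neuronal-like, 122 and 80.2 CPM in dI5/dILB-like and 95.8 and 119 CPM in dI4/dILA-like neurons, and 12.1 and 16.7 CPM in progenitor-like cells. Pcdh7 was highest in pan-neuronal-like neurons in RA (68.8 CPM) and in dI1-like neurons in RA+BMP4 (66.4 CPM). It had 46.5 and 60.2 CPM in dI5/dILB-like neurons and 1.78 and 3.64 CPM in newborn neuron-like cells. Outside neurons Pcdh7 was at 51.4 and 62.0 CPM in dorsal midline epithelium-like cells. Pcdh11x had 23.9 and 8.40 CPM in pan-neuronal-like neurons, 17.98 and 21.0 CPM in dI5/dILB-like neurons and 11.7 and 18.2 CPM in mesenchyme-like cells. Pcdh1 was at 9.55 CPM or less in every class.

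The delta-2 protocadherins differed in the classes where they were highest. Pcdh8 (chr14:79766775-79771312), known as paraxial protocadherin, was highest in newborn neuron-like cells, at 120 CPM (RA) and 217 CPM (RA+BMP4). The next class had 49.0 CPM (RA) and 49.8 CPM (RA+BMP4), and the Atoh1-led neurons had 4.04 and 9.27 CPM. In thinned newborn neuron-like cells 26.2% (RA) and 45.0% (RA+BMP4) had a Pcdh8 UMI, against 0.70% and 0.88% of mesenchyme-like cells. Pcdh8 and Celsr2 were thus both high in newborn neurons, while the Atoh1-led neurons had the highest Celsr2 and low Pcdh8. Pcdh18 (chr3:49743296-49757325) was highest in mesenchyme-like cells (118 and 111 CPM), with 32.1 and 31.7 CPM in progenitor-like cells and 6.38 CPM or less in the dI classes and pan-neuronal-like neurons. Pcdh19 was shared by mesenchyme-like cells (50.7 and 33.7 CPM), Atoh1-led neurons (29.1 and 21.9 CPM) and dI1-like neurons (23.2 and 39.7 CPM). Pcdh10 was highest in dorsal midline epithelium-like cells in RA (98.1 CPM) and in pan-neuronal-like neurons in RA+BMP4 (70.8 CPM). Pcdh17 was highest in pan-neuronal-like neurons in RA (57.3 CPM) and in dI5/dILB-like neurons in RA+BMP4 (66.5 CPM).

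A member was counted as restricted to a class where the same class was highest in both libraries, at 20 CPM or more and at 4 times the median class or more. This held for 9 of the 18 members that reached 20 CPM in a class of each library: Cdh1 (pluripotent-like), Cdh11 and Pcdh18 (mesenchyme-like), Cdh6 (dorsal midline epithelium-like), Celsr1 (roof plate-like), Pcdh8 (newborn neuron-like), Cdh4 (dI1-like), and Cdh10 and Pcdh9 (pan-neuronal-like). The rule sets no distance to the second class, which was close for some. In RA, Pcdh9 had 134 CPM against 122 CPM in dI5/dILB-like neurons. Cdh6 had 241 CPM there against 171 CPM in mitotic-gene-led cycling cells. In RA+BMP4, Cdh10 had 21.6 CPM against 18.2 CPM in dI5/dILB-like neurons. Among all genes that could be counted, 15.5% were restricted, and 8.6% of those not used for clustering, a group that includes the members. The members were kept out by rule, and 22 of them were among the variable genes when allowed. Most other genes of that group were not picked as variable, so 8.6% is a low background for the members. The highest class was the same in both libraries for 11 of 18 members (61.1%), against 57.6% of all genes. Over the 8 neuron clusters alone, 4 of 17 members were restricted: Cdh4 (Lhx2-led dI1-like), Cdh10 (pan-neuronal-like), Celsr1 (Atoh1-led, 35.6 and 37.1 CPM) and Pcdh8 (newborn neuron-like). The Sorcs3-led dI1-like cluster was not among the 8, for its few RA cells, and had 3.03 and 20.7 CPM of Cdh10 against 46.4 and 21.6 CPM in pan-neuronal-like neurons. The shares over all genes were 3.62%, and 1.52% of genes not used for clustering, which is a low background for the same reason.

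The combination of each neuron cluster was alike in both libraries. With each member's log2(CPM + 5) centred over the 8 clusters of its library, the correlation across the 38 members between a cluster in RA and its counterpart in RA+BMP4 ranged from 0.78 to 0.92. All 8 RA clusters were most like their own counterpart, and the same was true of all 8 RA+BMP4 clusters. Of the dI1-like cells only the Lhx2-led cluster entered, since the other had 26 RA cells. The highest correlation with any other cluster was 0.49, for pan-neuronal-like neurons. These are correlations across genes, which are not independent replicates, and the clusters were formed on both libraries together. Members at 20 CPM or more in both libraries were Cdh2, Celsr2, Celsr3, Cdh13, Pcdh7, Pcdh9 and Pcdh17 for dI5/dILB-like neurons. For dI4/dILA-like neurons they were Cdh2, Cdh13, Celsr2, Celsr3, Pcdh7, Pcdh8 and Pcdh9. For dI2-like neurons they were Cdh2, Cdh6, Cdh11, Cdh13, Celsr2, Celsr3, Pcdh9 and Pcdh17. The dI1-like set, over its 2 clusters together, was Cdh2, Cdh4, Cdh11, Celsr2, Celsr3, Pcdh8, Pcdh9 and Pcdh19. Not all of these reached 20 CPM in each cluster of RA. The Lhx2-led cells had 19.5 CPM of Cdh11, 15.2 CPM of Pcdh8 and 17.4 CPM of Pcdh9. The Sorcs3-led cells had 9.08 CPM of Pcdh19. The pan-neuronal-like set was the longest, with 12 members, and the pluripotent-like set the shortest, with Cdh1 and Cdh2.

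Few members are seen in a single cell at this depth. In cells thinned to 5000 UMIs the median number of members with a UMI was between 2 and 4 in 14 of the 15 classes of both libraries, and 0 in pluripotent-like cells. The thinned cells held a mean of 3.65 to 5.91 member UMIs each in the 14 classes, and of 0.685 and 0.78 in pluripotent-like cells, so the depth limits these numbers. Summed member expression was 136 and 129 CPM in pluripotent-like cells and from 716 to 1173 CPM in the others. In total, 16 members were found in at least 10% of the thinned cells of some class in both libraries, 23 without thinning.

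The dI1-like class held 2 clusters with different cadherins, and this comparison was made within the RA+BMP4 library after the clusters were seen. One was led by Lhx2, Barhl2 and Lhx9 (455 cells), the other by Sorcs3, Kctd4 and Barhl1, with Robo2 among its leading genes (1023 cells). Of 13 members at 20 CPM in 1 of these clusters, 6 were at least 2-fold higher in the Sorcs3-led cluster and 1 in the Lhx2-led cluster. Among all genes with the same floor these shares were 4.05% and 3.16%. Of the 6, only Pcdh9 reached 20 CPM in both clusters. The others entered the 13 through the Sorcs3-led cluster alone, so the count of 6 depends on the floor. The cells were clustered by other genes, but a cluster's genes are related, so the counts are a description.

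The largest ratio among the 13 was that of Pcdh7, with 5.42 CPM in the Lhx2-led and 97.2 CPM in the Sorcs3-led cluster, a ratio of 17.9 (12.1 to 27.9). Pcdh15 had 2.82 and 26.3 CPM, Pcdh10 had 3.03 and 25.7 CPM, Cdh10 had 3.03 and 20.7 CPM, Cdh13 had 12.8 and 49.5 CPM, and Pcdh9 had 23.4 and 84.9 CPM. Cdh4 went the other way, at 89.9 CPM in the Lhx2-led and 36.3 CPM in the Sorcs3-led cluster. Cdh2, Celsr3 and Pcdh8 were within 1.5-fold. Below the 20 CPM floor, Cdh12 had 0 UMIs in the Lhx2-led and 113 in the Sorcs3-led cluster, at least 19-fold higher when the empty cluster is set at 3 counts, though its exon overlaps that of Gm49685 on the same strand. Cdh18 had 1 and 82 UMIs there, and Cdh9 had 2 and 49. In the RA library, with 67 Lhx2-led and 26 Sorcs3-led cells, values rest on few UMIs. There Pcdh7 had 7.59 and 54.5 CPM (7 and 18 UMIs) and Cdh4 had 94.3 and 27.2 CPM (87 and 9 UMIs). Pcdh15 had 1.08 and 21.2 CPM (1 UMI and 7), and Pcdh10 2.17 and 12.1 CPM (2 and 4 UMIs). Cdh13 had 10.8 and 21.2 CPM (10 and 7 UMIs), and Pcdh9 17.4 and 60.5 CPM (16 and 20 UMIs). Cdh10 was at 2.17 and 3.03 CPM, from 2 UMIs and 1. Of members under 2-fold in RA+BMP4, Pcdh8 had 15.2 and 78.7 CPM in RA (14 and 26 UMIs). Pcdh19 went the other way, at 28.2 and 9.08 CPM in RA (26 and 3 UMIs) against 26.6 and 46.2 CPM in RA+BMP4. Median depth was 9575 UMIs in the Lhx2-led and 8568 in the Sorcs3-led cells of RA+BMP4, and with only cells of at least 5000 UMIs the counts were again 6 and 1.

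**Figure D4:**
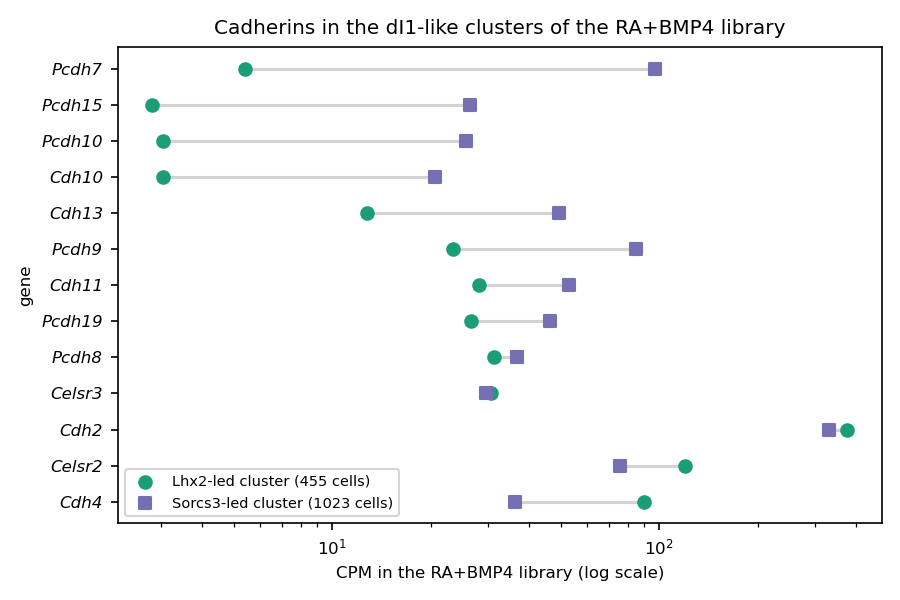
Summed CPM (horizontal log axis) of the 13 members that reached 20 CPM in the Lhx2-led (circles, 455 cells) or Sorcs3-led (squares, 1023 cells) dI1-like cluster of the RA+BMP4 library, which is 1 library. Pcdh7 lies at 5.42 against 97.2 CPM, and Cdh4 is the member furthest in the other direction, at 89.9 against 36.3 CPM.

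Within classes, single cadherins differed between the libraries. Of 134 pairs of member and class at 20 CPM or more in 1 library, 12 were at least 2-fold higher in RA+BMP4 and 7 at least 2-fold lower. Of 101315 such pairs over all genes, 1.37% were higher and 0.584% lower. Most of the 12 and 7 pairs reached 20 CPM only in the library where they were higher. Pcdh9 in dI1-like neurons, and Cdh10 and Pcdh7 in pan-neuronal-like neurons, reached it in both. The genes behind the background shares were not matched for level, so these counts are a description. The dorsal midline epithelium-like (10 members above 20 CPM), roof plate-like (8), pluripotent-like (2), mitotic-gene-led (9) and histone-led cycling (8) groups had 0 such pairs. Of all genes there, 0.367%, 1.25%, 0.581%, 3.18% and 1.40% were 2-fold apart, so a count of 0 is near the background.

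**Figure D5:**
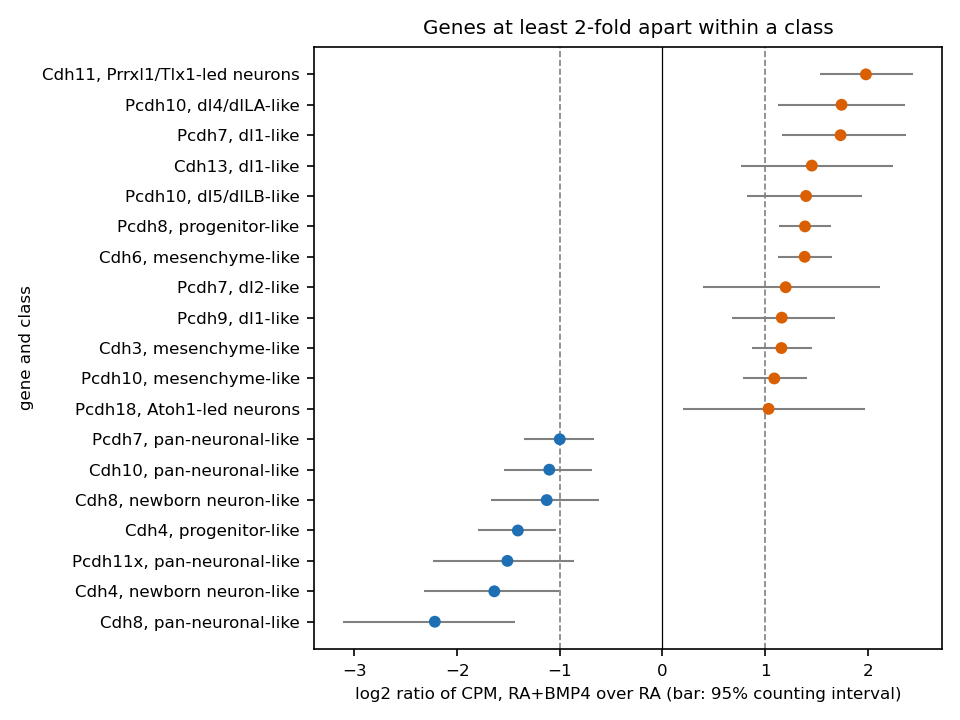
Log2 ratio of CPM, RA+BMP4 over RA, for the 19 pairs of member and class at least 2-fold apart (points; bars are exact 95% counting intervals; 1 library per condition). Orange points are higher in RA+BMP4 (12 pairs, led by Cdh11 in Prrxl1/Tlx1-led neurons at 1.98) and blue points lower (7 pairs, led by Cdh8 in pan-neuronal-like neurons at -2.22).

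Progenitor-like cells had more Pcdh8 and less Cdh4 in RA+BMP4, and newborn neuron-like cells less Cdh4 and Cdh8. In progenitor-like cells Pcdh8 had 19.02 CPM (RA) and 49.8 CPM (RA+BMP4), and Cdh4 had 34.8 and 13.1 CPM. Both progenitor-like clusters showed it: Pcdh8 was at 15.8 and 37.0 CPM in one and at 27.3 and 73.0 CPM in the other. In newborn neuron-like cells Cdh4 had 23.6 and 7.57 CPM and Cdh8 27.1 and 12.4 CPM, while Pcdh8 (120 and 217 CPM) stayed under 2-fold. The log2 ratio of Pcdh8 in progenitor-like cells, 1.39, was 2.98 with each library clustered alone and 1.06 at resolution 1.5, and that of Cdh8 in newborn neuron-like cells, -1.13, was -2.35 with each library clustered alone. Markers differed in these classes too, and not all in 1 direction. The 20 progenitor markers summed to 11947 and 7665 CPM in progenitor-like cells (6 of 20 higher in RA+BMP4). In newborn neuron-like cells they summed to 5922 and 5054 CPM (4 of 20 higher). The 13 roof plate markers summed to 422 and 715 CPM in progenitor-like cells (11 of 13 higher). In progenitor-like cells Olig3, a factor of the most dorsal progenitors, had 1.84 CPM (RA) and 24.8 CPM (RA+BMP4) and Msx1 31.3 and 78.2 CPM. In newborn neuron-like cells Olig3 had 36.8 and 190 CPM and Neurog2 128 and 367 CPM.

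Cells were then split by whether they held an Olig3 UMI, a split chosen after these values were seen. In RA newborn neuron-like cells Pcdh8 had 249 CPM (216 to 286) in the 57 cells with an Olig3 UMI and 94.8 CPM (85.8 to 105) in the 348 without. In RA+BMP4 it had 221 CPM (201 to 242) in 177 cells with and 212 CPM (188 to 239) in 139 cells without. Progenitor-like cells had 46.7 CPM of Pcdh8 with (20 cells) and 18.3 CPM without an Olig3 UMI in RA, and 120 CPM (57 cells) and 38.0 CPM in RA+BMP4. Cdh8 was lower in newborn cells with an Olig3 UMI in both libraries, at 9.76 against 30.5 CPM in RA and 5.52 against 22.96 CPM in RA+BMP4. Among progenitor-like cells without an Olig3 UMI, Cdh4 had 35.1 CPM (RA) and 13.9 CPM (RA+BMP4). Median depth in newborn cells was 14129 and 10996 UMIs with, and 11721.5 and 8949 UMIs without, an Olig3 UMI. The part of the progenitor mix in these differences was not tested.

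Cdh11 in the Prrxl1/Tlx1-led neurons had the largest ratio of the 12 higher pairs, at 11.1 CPM in RA against 43.9 CPM in RA+BMP4 (3.95-fold, 2.89 to 5.44). The identity genes of that cluster differed too. Isl1, a dI3 factor, had 13.6 and 72.2 CPM and Foxd3, a dI2 factor, 9.35 and 108 CPM, while Lbx1 had 73.1 and 25.03 CPM, Lmx1b 92.3 and 9.80 CPM, and Tlx1 70.2 and 5.08 CPM. At a finer clustering resolution of 1.5, the Lmx1b-rich part had 7.01 CPM of Cdh11 in 282 RA cells, from 22 UMIs. In its 34 RA+BMP4 cells Cdh11 had 7.39 CPM from 2 UMIs. That interval, 0.895 to 26.7 CPM, is too wide to tell a rise from none. A further part, with 65 RA and 26 RA+BMP4 cells, had 3 UMIs and 1 of Cdh11 (3.46 and 4.18 CPM). In the 2 parts with most Isl1 and Foxd3, Cdh11 had 26.5 and 76.5 CPM, and 16.7 and 36.1 CPM. The 12 mesenchyme markers summed to 42.2 and 52.6 CPM in this cluster, with 5 of 12 higher in RA+BMP4, against 4174 and 3195 CPM in mesenchyme-like cells. The part of these identity differences was not tested.

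Pcdh10 was higher in RA+BMP4 in dI4/dILA-like neurons (6.84 and 22.9 CPM), dI5/dILB-like neurons (12.4 and 32.8 CPM) and mesenchyme-like cells (9.51 and 20.2 CPM). The dI5/dILB-like class of RA+BMP4 held 118 cells against 814 in RA, with 112 against 7.80 CPM of Isl1 and 22.8 against 69.6 CPM of Lbx1. In dI4/dILA-like neurons Pax2 had 489 and 378 CPM, and the 13 roof plate markers summed to 390 and 768 CPM (11 of 13 higher in RA+BMP4). In roof plate-like cells Pcdh10 had 47.7 and 37.5 CPM. Their part was not tested. In dI2-like neurons Pcdh7 had 9.54 CPM (101 cells) and 21.9 CPM (523 cells), a log2 ratio of 1.20 that became 0.30 when each library was clustered alone. In Atoh1-led neurons Pcdh18 had 11.3 CPM in RA, from 14 UMIs, and 23.2 CPM in RA+BMP4, from 75 (2.05-fold, 1.15 to 3.92). There the 12 mesenchyme markers summed to 37.2 and 71.4 CPM (10 of 12 higher in RA+BMP4) and the 20 progenitor markers to 2476 and 3252 CPM (11 of 20 higher). Their part was not tested.

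In the dI1-like class Pcdh7, Cdh13 and Pcdh9 were higher in RA+BMP4, at 19.96 and 66.4 CPM, 13.6 and 37.2 CPM, and 28.7 and 64.3 CPM. The 2 clusters of that class had different weights: 26 of its 93 RA cells and 1023 of its 1478 RA+BMP4 cells were Sorcs3-led. With the Lhx2-led cluster alone, the log2 ratios of Pcdh7, Cdh13 and Pcdh9 were -0.49, 0.24 and 0.43, none of them 2-fold. With each library clustered alone those of Pcdh7 and Pcdh9 were 2.46 and 2.15.

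Mesenchyme-like cells had more Cdh3 (10.8 and 24.2 CPM) and Cdh6 (13.1 and 34.1 CPM) in RA+BMP4. Of the clusters in this class, the Tagln-led one (136 and 319 cells) had Cdh6 at 9.77 and 47.0 CPM and Cdh3 at 9.77 and 35.5 CPM. In the Col1a2-led one (298 and 602 cells) the difference was smaller, with Cdh6 at 15.2 and 23.7 CPM and Cdh3 at 11.5 and 15.05 CPM. With each library clustered alone the log2 ratio of Cdh6 was 0.76 and that of Cdh3 0.24, so neither stayed 2-fold. Zeb2 had 87.4 and 24.8 CPM in the class, and the 12 mesenchyme markers summed to 4174 and 3195 CPM. Markers of other cell types differed in the class too. The 9 surface ectoderm markers summed to 38.3 and 91.3 CPM (9 of 9 higher in RA+BMP4), the 13 roof plate markers to 130 and 232 CPM (12 of 13 higher), and the 10 muscle markers to 490 and 197 CPM (1 of 10 higher). Their part was not tested.

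Pan-neuronal-like neurons had less of 4 members in RA+BMP4: Cdh8 (26.0 and 5.599 CPM), Pcdh11x (23.9 and 8.40 CPM), Cdh10 (46.4 and 21.6 CPM) and Pcdh7 (68.8 and 34.4 CPM). The subtypes in this class also differed, with Dmrt3, a dI6 factor, at 32.2 and 1.20 CPM, Pax2 at 40.5 and 10.8 CPM, Hmx3 at 1.74 and 31.6 CPM, and Isl1 at 2.73 and 29.6 CPM. With each library clustered alone, the log2 ratios were 1.34 for Cdh8, 0.23 for Pcdh7, -0.76 for Pcdh11x and -0.83 for Cdh10, so no call of this class was kept under that setting. The part of the subtype mix was not tested.

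The other 16 members stayed below 5 CPM in both libraries. Some of them marked rare cells. Cdh5 (VE-cadherin, the cadherin of endothelial junctions) had 155 and 302 UMIs in all. In RA, 92 of them (59.4%) were in pluripotent-like cells and 56 (36.1%) in 3 cells of the cluster described next, which held 281 (93.0%) of those in RA+BMP4. In RA+BMP4, a cluster of 124 cells with Isl1, Cdh5 and Sox10 among its leading genes held 12 cells with a Cdh5 UMI. These also had a UMI of the endothelial genes Kdr and Cldn5 (12 of 12 each) and Pecam1 (9 of 12), of Pcdh12, an endothelial protocadherin, in 6 of 12, and of Pcdh17 in 11 of 12. None of the 12 had a UMI of Cdh19 or Isl1, which allows a share of up to 25% when 3 counts are taken. Of the 112 other cells of the cluster, 41 had Cdh19, a cadherin of Schwann cell precursors, 53 had Sox10, 66 had Isl1, 73 had Cdh6 and 0 had Cldn5 (up to 2.68%). This look within the cluster was chosen after its genes were seen. Cdh19 had 2 UMIs in RA and 83 in RA+BMP4.

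Genes that work with cadherins were counted in the same way over the whole libraries, where 1.5% of all genes were higher and 1.41% lower, so a count of 0 in lists this short is near the background. Of 12 catenins and junction partners above 5 CPM, 0 were 2-fold apart, with Ctnnb1 (beta-catenin) at 313 and 295 CPM, Ctnna1 at 136 and 136 CPM, and Afdn at 85.9 and 98.4 CPM. Among 11 planar polarity partners of Celsr, 0 were 2-fold apart, with Fzd3 at 224 and 275 CPM, Vangl2 at 102 and 95.5 CPM, and Dvl3 at 60.5 and 60.4 CPM. The same held for 9 WAVE complex genes (Brk1 at 181 and 183 CPM, Nckap1 at 86.7 and 92.1 CPM, Abi2 at 81.8 and 73.4 CPM) and for 5 Fat and Dachsous genes (Fat1 at 71.1 and 94.9 CPM, Fat3 at 63.3 and 71.8 CPM, Fjx1 at 45.8 and 67.7 CPM). None of 26 clustered protocadherins was 2-fold apart (Pcdhb16 at 25.9 and 26.4 CPM, Pcdhb11 at 23.8 and 24.8 CPM, Pcdhb19 at 21.4 and 21.0 CPM), nor of 3 nectins (Nectin3 at 56.3 and 74.0 CPM, Nectin2 at 52.6 and 50.6 CPM, Nectin1 at 30.2 and 36.3 CPM), nor of 4 other cadherin-repeat genes (Clstn1 at 52.7 and 49.2 CPM, Clstn3 at 7.90 and 10.0 CPM, Dsg2 at 6.94 and 4.30 CPM).

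One of 7 repressors and one of 7 proteases passed 2-fold, both higher in RA+BMP4. Twist2 had 3.02 and 6.56 CPM, and was highest in mesenchyme-like cells (19.9 and 35.6 CPM). The libraries held 434 and 921 mesenchyme-like cells. Pcsk5, a proprotein convertase, had 7.92 and 20.1 CPM, with 22.4 and 73.6 CPM in dI1-like neurons. The most abundant repressors were Tcf4 (345 and 300 CPM), Zeb2 (80.9 and 73.5 CPM) and Twist1 (67.3 and 96.5 CPM), and abundant proteases included Adam10 (78.6 and 85.2 CPM) and Adam17 (21.3 and 23.1 CPM). List medians of the log2 ratio ran from -0.34 to 0.27, against 0.07 for all genes.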

How the data were processed

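Day 9 cultures of MM13 cells given RA or RA+BMP4 were dissociated and captured with 10x Genomics 3' chemistry, per the labels' protocols. The authors deposited raw UMI counts per gene and barcode, and GRCm38, CASAVA and Cell Ranger 3.0.2 are listed per the submitters' processing notes. The annotation release is not given in the sources used here. Gene positions came from GENCODE annotation of GRCm38, and promoter windows from RefSeq (GRCm38.p6).

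Cells needed 1000 genes and at most 10% mitochondrial UMIs (medians 6.06% in RA and 4.22% in RA+BMP4). Scrublet in scanpy 1.11.5 (expected rate 8%) called 138 RA and 298 RA+BMP4 doublets, which were removed. After scaling each cell to 10000 UMIs and taking logs, 3000 variable genes, 30 components, 20 neighbours and Leiden resolution 1 (leidenalg 0.10.2) gave the clusters, without integration. Members, marker and partner lists, mitochondrial and ribosomal genes (513 in all) were kept out. Each cluster was named for the marker list best represented in its 10 leading genes, given at least 3 markers found in 10% of its cells at 1.5-fold. Ties stayed unnamed, and so did clusters where no list with a leading gene met the minimum of 3 markers. This scoring rule, and the minimum of 500000 UMIs beside that of 50 cells, were set after the clusters were seen. The members and all lists were chosen with earlier results of these data known.

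Counts were summed per class and given as CPM. Intervals were Poisson for CPM, conditional binomial for ratios and Clopper-Pearson for shares, all exact. With 1 library per condition no test was made. For shares, cells were thinned to 5000 UMIs, leaving out 187 RA and 573 RA+BMP4 cells. The rules were tested on simulated data. Every member may be named, those at 5 CPM or more in full, with the called and the 3 most abundant genes of each partner list. A few genes that this rule or the context would name are not reported here. Of the 56 clustered protocadherins listed, 55 were found. Alternatives covered scaling (TMM from edgeR 4.0.16, median-of-ratios), filters, doublets, floors and clustering.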

Additional observations from a re-analysis of the deposited data

Results flagged for a closer look

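Pcdh7 differed in opposite directions between neuron classes under the same contrast. Its log2 ratio of RA+BMP4 over RA was 1.73 in dI1-like neurons and 1.20 in dI2-like neurons, and -1 in pan-neuronal-like neurons. With 1 library per condition the difference between the classes was not tested. With the Lhx2-led cluster alone the dI1-like value was -0.49. With each library clustered alone the dI2-like value was 0.30 and the pan-neuronal-like value 0.23.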

How the results depend on the processing

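No paired analysis was possible because each condition had 1 library and no replicate numbers. Over the whole libraries, where 0 members were higher and 0 lower, 1 was lower with TMM factors, with median-of-ratios factors, and without pluripotent-like cells. The lower member was Cdh1 with TMM factors, but not without pluripotent-like cells. With cells weighted equally 1 was higher and 1 lower, with no CPM floor 4 and 2, and with the stricter cell filter (2000 genes, 5% mitochondrial UMIs) 2 and 1. TMM moved all log2 ratios by -0.06 and median-of-ratios factors by -0.07, and the near-0 log2 ratios of Cdh2, Celsr3 and Pcdh11x turned negative under both, that of Celsr2 under the second. Within classes, the count of lower pairs went from 7 to 11 at resolution 1.5 and to 11 with no UMI minimum, and a floor of 5 CPM gave 30 higher and 19 lower. Clustering each library alone reversed Cdh8 (1.34) and Pcdh7 (0.23) in pan-neuronal-like neurons, and the Lhx2-led cluster alone reversed Pcdh7 in dI1-like neurons (-0.49). A floor of 5 CPM raised the members higher in the Sorcs3-led cluster from 6 to 12. Requiring 2 UMIs per cell lowered the members found in 10% of a class from 16 to 7. Of the partner genes, 1 instead of 2 was higher at a floor of 20 CPM, and also without pluripotent-like cells. Counts of restricted members stayed within 1.5-fold under all settings run. The cause of these shifts was not tested. The settings without a UMI minimum, with the Lhx2-led cluster alone, and for the dI1-like clusters were added after the data were seen. Shallow classes limit the scarce members.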
